A study of Mus musculus with 2 samples.

Results

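The 10 microRNA genes at the Meg3 end of the imprinted Dlk1-Dio3 region were described in fetal mouse liver. They were taken by name from the deposited tables, with symbols assigned to Ensembl IDs by the GENCODE M21 annotation. All 10 of the named genes had a row among the 1973 microRNA genes, and all 10 passed the minimum of 10 counts in each library used for the tests. Small RNA was sequenced from whole liver of strain B6NCrl embryos at day 14.5 of gestation, when the liver is the main site of blood formation. There was 1 group of 2 libraries, replicate 1 and replicate 2, with no mutant, treatment or second tissue, so the comparisons are between genes within a library and between the replicates. The labels call each sample the liver of a single pup, yet state the sex as pooled male and female and repeat a single donor ID, so it is uncertain how many animals stand behind each library. The p-values below measure only the difference between these libraries, which may be partly technical.

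The libraries held 6395680 reads in replicate 1 and 8068090 reads in replicate 2, of which 2353946 and 3132763 were counted at a microRNA gene on its own strand. Levels are CPM, the count scaled to these same-strand totals, with ± for the SD (n = 2 replicates). Intervals are 95% exact intervals that cover counting error only, since reads copied by PCR are not independent molecules. Liver and red cell markers were high: Mir122, the microRNA of hepatocytes, had 97348 and 110371 CPM, and Mir451a, of red cell precursors, had 38020 and 30243 CPM in replicates 1 and 2. Markers of 2 other tissues that also express this region were low and higher in replicate 1: the summed level of the 9 measured neural markers was 496.2 CPM in replicate 1, against 180.03 CPM in replicate 2, and that of the 5 measured muscle markers was 37.8 and 18.2 CPM. Most of the neural difference came from Mir137, with 570 counts in replicate 1 and 70 in replicate 2, and Mir219a-2, with 127 and 11. Mir9-3 had 38 and 2 counts, and the muscle marker Mir206 had 73 and 44. Among reads that map to 1 place, Mir124a-2, Mir124a-3, Mir9-2, Mir1a-1, Mir133a-1 and Mir133a-2 had no count in either library. Mir124a-1 had 1 count in replicate 2. Each of these microRNAs has more than 1 gene, and reads that map to more than 1 place were left out. Their low counts therefore cannot show that they were absent. Because the tissue was taken whole, more cells of a type and more RNA per cell cannot be told apart.

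In the Dlk1-Dio3 region, long noncoding RNAs and microRNAs are transcribed from the copy inherited from the mother, while the protein-coding genes Dlk1, Rtl1 and Dio3 are expressed from the copy inherited from the father. Some of the maternal microRNA hairpins lie opposite the coding sequence of Rtl1, a gene derived from a retrotransposon that the mouse placenta needs. Their products match the Rtl1 transcript perfectly and in the mouse guide its cleavage, so the maternal copy acts on a message of the paternal copy. MicroRNAs bind other messages mainly through the seed, bases 2 to 8 from the 5′ end.

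The annotation of GRCm38 (mm10) places all 10 genes on the plus strand of chromosome 12, between 109563692 and 109594599. Mir770 (ENSMUSG00000076451, 109563692 to 109563785) was the only one of them inside the annotated Meg3 gene, in an exon of 1 Meg3 transcript and an intron of 3 others. Mir673 (ENSMUSG00000076316, 109571990 to 109572080) and Mir493 (ENSMUSG00000077025, 109580233 to 109580315) followed after gaps of 8204 and 8152 bases. Mir337 (ENSMUSG00000065526, 109585789 to 109585885), Mir540 (ENSMUSG00000072900, 109586080 to 109586146) and Mir665 (ENSMUSG00000076313, 109586314 to 109586407) lay close together, with gaps of 194 and 167 bases. These 5 genes lay outside Meg3 and outside Rtl1 as annotated in M21. Mir431 (ENSMUSG00000070080, 109590447 to 109590537), Mir433 (ENSMUSG00000070072, 109591715 to 109591838), Mir127 (ENSMUSG00000070076, 109592846 to 109592915) and Mir434 (ENSMUSG00000070133, 109594506 to 109594599) lay wholly opposite the 5232-base Rtl1 coding sequence, which runs on the minus strand from 109590172 to 109595403. For Mir337, Mir540 and Mir127 the tables carry an older version of the ID than M21, so the interval in which their reads were counted may differ from the one given here.

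RefSeq (GRCm38.p6) held a hairpin for 10 of the 10 genes, at the same interval as GENCODE, and 2 mature sequences for each. The mature sequences of the 4 genes opposite Rtl1 are shown because their complementarity defines that set; capitals mark the seed.
miR-431-5p: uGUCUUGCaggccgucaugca
miR-431-3p: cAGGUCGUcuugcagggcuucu
miR-433-5p: uACGGUGAgccugucauuauuc
miR-433-3p: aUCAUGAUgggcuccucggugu
miR-127-5p: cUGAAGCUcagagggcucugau
miR-127-3p: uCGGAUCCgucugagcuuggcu
miR-434-5p: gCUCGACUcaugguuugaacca
miR-434-3p: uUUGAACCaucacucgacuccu

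The reverse complement of each of these 8 sequences was present in the Rtl1 transcript, inside the coding sequence, and none of the 12 mature sequences of the other 6 genes had its complement there. The stretches of Rtl1 that face the products of the most abundant genes are shown for comparison, 5′ to 3′ on the Rtl1 strand.
Rtl1 facing miR-431-5p: ugcaugacggccugcaagaca
Rtl1 facing miR-127-3p: agccaagcucagacggauccga

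The 20 mature sequences had 20 distinct seeds, so the 10 genes do not form a seed family. Of the 1738 RefSeq mature mouse sequences, only 2 others carried one of these seeds, and they are shown beside the member they match, again with the seed in capitals.
miR-673-5p: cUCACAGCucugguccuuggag
miR-6985-3p: cUCACAGCcaccuccucacag
miR-540-3p: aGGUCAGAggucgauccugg
miR-6915-5p: aGGUCAGAgcagauggagguucgu

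Mir6985 had 0 counts in replicate 1 and 1 in replicate 2, and Mir6915 was not analysed here. The arms of Mir431 and Mir434 repeat each other in part. A run of 10 bases, GUCUUGCAGG, occurs in both products of Mir431, and 9 bases, UUUGAACCA, in both products of Mir434, against 3 to 6 bases in the other 8 genes. No hairpin of the 10 shared a stretch of 20 bases with another RefSeq mouse hairpin, so no near-identical copy was found for them at that length. The hairpins of the set opposite Rtl1 were 70 to 124 bases long with a GC content of 45.7% to 60.4%, and the others were 67 to 97 bases long with 52.6% to 70.2%, so both measures overlapped between the sets. The deposited counts are per gene and do not separate the 5p and 3p products.

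Levels of the 10 genes differed by 108.9-fold or more, and the 2 highest both lay opposite Rtl1. Mir431 had 54174 counts in replicate 1 and 69275 in replicate 2, which is 23014 and 22113 CPM (22564 ± 637.1) and 2.30% (2.28 to 2.32) and 2.21% (2.20 to 2.23) of all same-strand counts. By mean CPM it ranked 11 among all 1973 genes, between Mirlet7i (23409 ± 122.1 CPM) and Mir30e (22127 ± 1531 CPM). Its rank was 11 in replicate 1 and 12 in replicate 2, where Mir30e was higher with 23210 CPM. Of the 1973 genes, 1273 had no same-strand count in either library. Ranks and shares rest on reads that map to 1 place. The 34.0% of reads in replicate 1 and 33.1% in replicate 2 that map to more places were left out, so genes with near-identical copies may rank too low. In mouse muscle stem cells miR-431 is known to act on Pax7. Mir127, whose product cuts the Rtl1 message in mice, had 45752 and 65786 counts, or 19436 and 20999 CPM (20218 ± 1105). By mean CPM it ranked 13, between Mir30e and Mir22 (20086 ± 238.6 CPM). Its rank was 15 in replicate 1, where Mir22 was higher with 20255 CPM, and 13 in replicate 2. The Mir431 values lay above both Mir127 values in CPM, but by a narrow margin in replicate 2, where the ratio of their counts was 1.05, against 1.18 in replicate 1.

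The other genes opposite Rtl1 were several times lower. Mir434 had 3987 and 4026 CPM in replicates 1 and 2 (4007 ± 27.2, rank 53). Mir433 was the lowest of the set with 2325 and 2525 CPM (2425 ± 141.1, rank 64). Neither reached the level of Mir337, so the sets overlapped in level.

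Among the 6 genes outside Rtl1, the close group of Mir337, Mir540 and Mir665 stood apart from the genes nearer to Meg3. Mir337 had 4881 and 5123 CPM in replicates 1 and 2 (5002 ± 171.0, rank 46), which gave it place 3 of the 10 in both libraries. Mir540 had 1659 and 1827 CPM (1743 ± 118.9, rank 75), and Mir665 had 1548 and 1964 CPM (1756 ± 293.9, rank 73). The values of Mir540 and Mir665 overlapped and their order switched between the libraries. The genes nearer to Meg3 reached at most 318.2 CPM, the value of Mir493 in replicate 2. Mir493 had 641 counts in replicate 1 and 997 in replicate 2 (295.3 ± 32.5 CPM, rank 140), and Mir673 had 550 and 919 counts (263.5 ± 42.2 CPM, rank 148), so that their CPM ranges overlapped. Mir770, inside Meg3, was the lowest with 432 and 636 counts (193.3 ± 13.8 CPM, rank 157). From the highest gene to the lowest the difference was 125.4-fold in replicate 1 and 108.9-fold in replicate 2. Apart from the pairs Mir540 with Mir665 and Mir493 with Mir673, neighbours in this order did not overlap between the libraries.

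**Figure D1:**
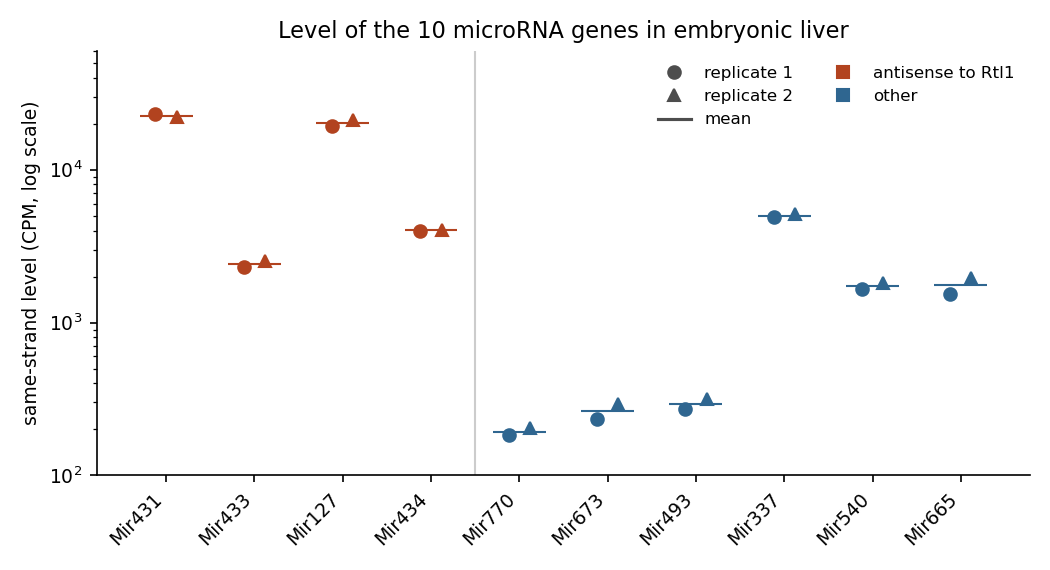
Same-strand level in CPM on a log axis for each of the 10 genes, with circles for replicate 1, triangles for replicate 2 and a line for the mean of both. The 4 genes opposite Rtl1 stand left, each set in order along the chromosome; Mir431 and Mir127 lie at 19436 CPM or above, and Mir770, Mir673 and Mir493 at 318.2 CPM or below.

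Because one read covers a whole mature microRNA, CPM was not divided by length. Per base of the annotated gene the highest place changed. Mir127, with the shorter gene, then had 277.7 CPM per base in replicate 1 and 299.99 in replicate 2, against 252.9 and 243.0 for Mir431. The lowest places did not change, with Mir770 at 1.95 and 2.16 CPM per base.

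Together the 10 genes took 5.75% (5.72 to 5.78) of the same-strand counts in replicate 1 and 5.94% (5.91 to 5.97) in replicate 2. The set opposite Rtl1 made up most of this. Its 4 genes summed to 48763 CPM in replicate 1 and 49663 CPM in replicate 2, against 8778 and 9729 CPM for the other 6 genes, a ratio of 5.56 and 5.10 (5.33 ± 0.318). They held 84.7% (84.6 to 84.9) of the counts of the 10 genes in replicate 1 and 83.6% (83.5 to 83.8) in replicate 2. The median level was 11712 and 12513 CPM in the set opposite Rtl1, against 910.4 and 1073 CPM in the other set. Without Mir431 and Mir337, the highest gene of each set, the ratio of the sums was 6.61 and 5.98. The sums rest on few genes, since Mir431 and Mir127 alone held 39.996% and 33.8% of the counts of the 10 genes in replicate 1 and 37.2% and 35.4% in replicate 2. Mir433 and Mir434, the rest of that set, held 4.04% and 6.93% in replicate 1 and 4.25% and 6.78% in replicate 2. Together Mir433 and Mir434 stayed below the sum of the other 6 genes in both libraries. Genes are not replicates, so the difference between the sets has no test.

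**Figure D2:**
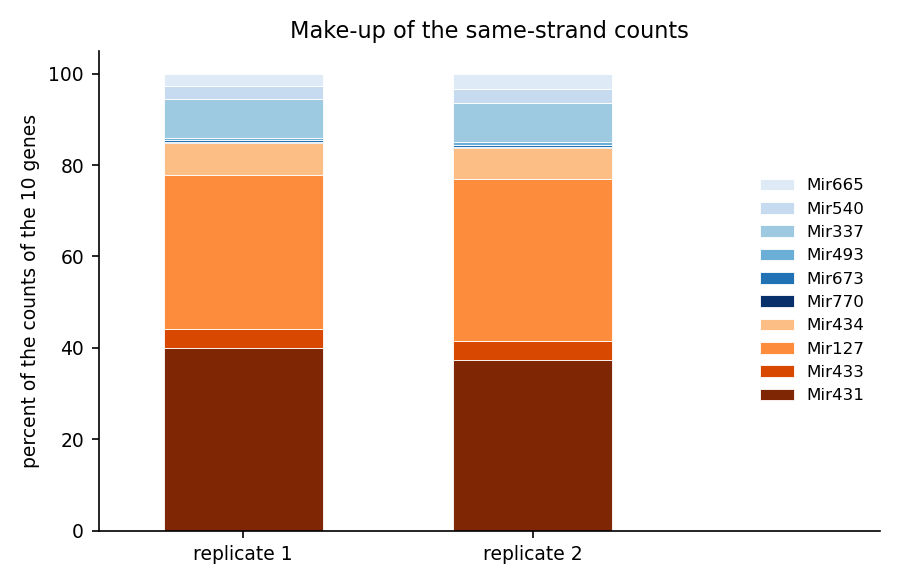
Stacked bars of the percent of same-strand counts of the 10 genes held by each gene in replicate 1 and in replicate 2, with the 4 genes opposite Rtl1 in red and orange at the base and the other 6 in blue. The red and orange part reaches 84.7% in replicate 1 and 83.6% in replicate 2.

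The region between the starts of Dlk1 and Dio3 held 59 microRNA genes with a row in the tables. The 10 genes gave 29.5% (29.3 to 29.6) of its same-strand counts in replicate 1 and 28.9% (28.8 to 29.0) in replicate 2. Mir431 and Mir127 ranked 2 and 3 of the 59 genes, below Mir411 with 39382 ± 1312 CPM. Mir411, Mir154 (15808 ± 1577 CPM) and Mir379 (15758 ± 366.1 CPM) were the highest of the other 49 genes, and all 3 lie over 168 kb downstream of the start of Meg3 in the large distal cluster. The median of the 10 genes was 1992 CPM in replicate 1 and 2244 CPM in replicate 2, against 325.4 and 402.8 CPM for the other 49 genes, of which 8 had no same-strand count in either library and enter this median at 0, although 3 of them (Gm24321, Gm25252 and Gm25750) had 7563 or more counts each on the opposite strand. Within the stretch of the 10 genes, Mir3070a (22.1 and 30.3 CPM) and Mir3070b (0 and 2 counts) lie between Mir665 and Mir431 and were far lower than either neighbour. Mir432, opposite Rtl1 like the set of 4, had no count, which allows up to 1.27 CPM in replicate 1 and 0.958 CPM in replicate 2. The 29.5% and 28.9% are shares of same-strand counts only: 86879 and 125269 further counts lay on the opposite strand of other genes of the region, and with them the 10 genes held 24.8% in replicate 1 and 24.2% in replicate 2, a calculation added after the data were seen.

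**Figure D3:**
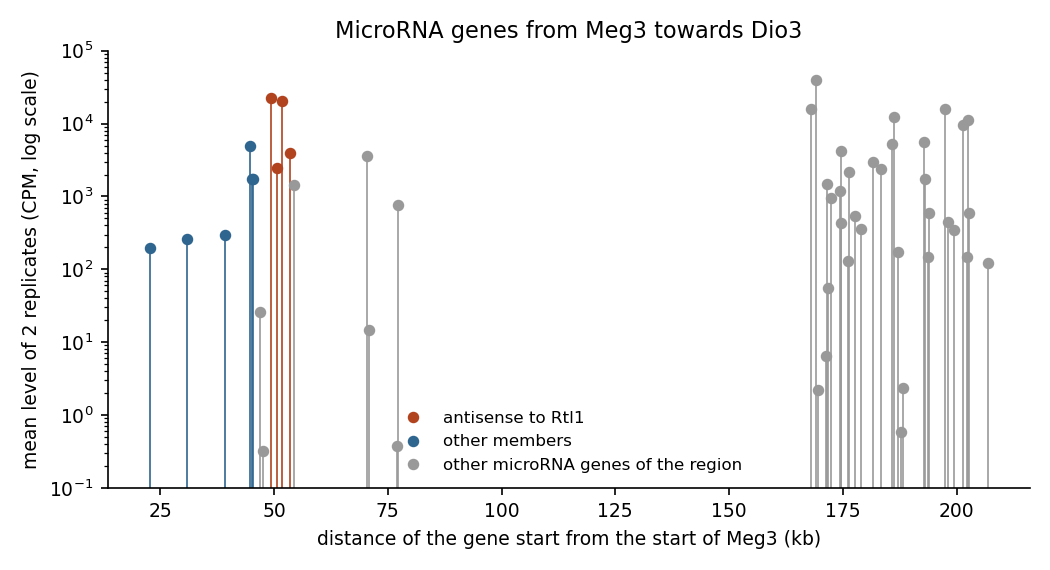
Mean same-strand level of both replicates in CPM, on a log axis, against the distance of each gene's start from the start of Meg3 in kb, for the microRNA genes of the region. The 4 genes opposite Rtl1 are red, the other 6 blue and the rest grey; the levels of the blue genes are 295.3 CPM or less at the first 3 positions and 1743 CPM or more at the next 3. The 8 genes with no same-strand count and Mir1247, 737 kb away, are not drawn.

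The replicates were compared gene by gene, as a ratio of replicate 1 over replicate 2, by an exact two-sided binomial test on the counts, scaled by library total and adjusted by Benjamini-Hochberg over the 332 genes with 10 or more counts in both libraries. Of these, 41.0% differed at an adjusted p under 0.05, with 17.8% higher in replicate 1 and 23.2% higher in replicate 2. Of the 10 genes at the Meg3 end 8 differed, 1 higher and 7 lower in replicate 1. The members have more counts than most genes, and of the 215 genes with 100 or more counts in both libraries 60.0% differed. The ratios of the 10 genes lay between 0.788 and 1.04. The median log2 ratio was -0.13 for the 10 genes and -0.03 for all 332 genes.

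Mir431 was the exception in direction. It was higher in replicate 1, with a ratio of 1.04 (1.03 to 1.05, adjusted p = 2.39e-11 by the exact test), while its neighbour Mir127 was lower, with a ratio of 0.926 (0.915 to 0.937, adjusted p = 6.29e-36). Their intervals did not overlap. Mir433 was also lower in replicate 1, with a ratio of 0.921 (0.890 to 0.953, adjusted p = 1.36e-05 by the exact test). Mir434 did not pass, with a ratio of 0.990 (0.964 to 1.02, adjusted p = 0.647 by the exact test). The median log2 ratio of the set opposite Rtl1 was -0.06, which turned to 0.02 when the other microRNA genes of the region served as the scale.

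All 6 other genes had lower CPM in replicate 1 by library totals, TMM and DESeq2 scaling, and 5 of them passed the test, while on the scale of the other region genes Mir337 turned and 2 passed. Mir665 had the largest difference of the 10, with a ratio of 0.788 (0.757 to 0.821, adjusted p = 2.35e-29 by the exact test), followed by Mir673 with 0.796 (0.715 to 0.886) and Mir493 with 0.856 (0.774 to 0.946). Mir540, the nearest neighbour of Mir665, had 0.908 (0.872 to 0.946), so genes of the same close group differed unequally. Mir337 had 0.953 (0.930 to 0.976). Mir770 had 0.904 with an interval of 0.798 to 1.02 and did not pass (adjusted p = 0.209 by the exact test). The median log2 ratio of these 6 genes was -0.18, and their ratios overlapped those of the set opposite Rtl1.

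**Figure D4:**
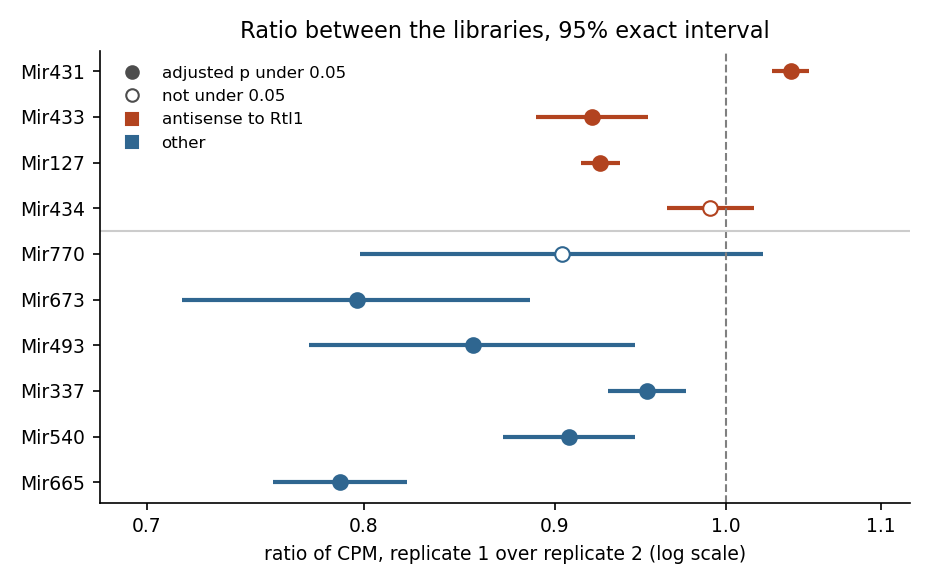
Ratio of CPM in replicate 1 over replicate 2 on a log axis for each gene, with its 95% exact interval; filled points passed the exact test at an adjusted p under 0.05. By library totals Mir431 alone lies right of 1, at 1.04 (Mir434 joins it by TMM or DESeq2 scaling, and Mir434 and Mir337 on the scale of the other region genes), and Mir665 and Mir673 lie farthest left, at 0.788 and 0.796.

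The other microRNA genes of the region leaned the same way: of the 36 that were tested, 2 were higher and 21 lower in replicate 1, with a median log2 ratio of -0.14 by library totals, and 2 were higher and 17 lower by TMM or DESeq2 scaling. Over all 332 tested genes TMM or DESeq2 scaling gave 66 higher and 65 lower in replicate 1. With the total of the other microRNA genes of the region as the scale, 5 of the 10 members differed, 2 of them higher in replicate 1 (Mir431 and Mir434) and 3 lower (Mir127, Mir665 and Mir673), and the calls over all genes then split 91 higher against 39 lower, where library totals gave 59 against 77. By library totals 9 of the 10 genes had lower CPM in replicate 1, but 8 by TMM or DESeq2 scaling and 7 on the scale of the other region genes. In the marker lists the erythroid markers Mir451a and Mir144 and 3 of the 4 tested neural markers were higher in replicate 1, and the 3 hepatocyte markers were lower there, of which 2 passed by TMM or DESeq2 scaling; on the scale of the other region genes 1 of them passed and 1 was higher in replicate 1. The erythroid list as planned also named Mir486a, which was not found under that symbol. The erythroid microRNA gene Mir486, not checked to be the same gene, was lower in replicate 1 by library totals, unlike Mir451a and Mir144. Its ratio was 0.785 (0.724 to 0.851, adjusted p = 1.68e-08 by the exact test). The part of these markers in the differences of the 10 genes was not tested.

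Mir337 was the only one of the 10 with more than 1 read on the opposite strand. It had 72 opposite-strand counts of 11561 in replicate 1, or 0.623% (0.488 to 0.784), and 139 of 16187 in replicate 2, or 0.859% (0.722 to 1.01). Scaled to the same-strand totals these were 30.6 and 44.4 CPM, a ratio of 0.689 (0.511 to 0.923). Mir540 had 1 such count in replicate 2 and the other 8 genes none. For Mir431 this allows up to 0.00554% of its counts in replicate 1 and 0.00433% in replicate 2. The median share over the 332 tested genes was 0% in both libraries. Of them, 12 genes in replicate 1 and 13 in replicate 2 had a higher share than Mir337. Summed over all genes, the share was 9.60% in replicate 1 and 10.2% in replicate 2. Genes with few same-strand counts, such as Gm24321 and Gm25252, are in this sum but not among the tested genes. The annotation places another microRNA gene, Mir3544, on the minus strand inside the Mir337 hairpin, from 109585813 to 109585873. Mir3544 had no row in the tables used here, so opposite-strand reads at Mir337 cannot be divided between genes. The products of both genes are shown because they overlap on opposite strands, by 17 bases for miR-337-5p with miR-3544-3p and 21 bases for miR-337-3p with miR-3544-5p, with seeds in capitals.
miR-337-5p: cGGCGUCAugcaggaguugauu
miR-3544-3p: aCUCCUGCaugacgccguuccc
miR-337-3p: uCAGCUCCuauaugaugccuuu
miR-3544-5p: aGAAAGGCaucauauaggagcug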

How the data were processed

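The authors deposited raw read counts per microRNA gene for each library, regardless of strand, on the gene's strand and on the opposite strand. Per the file headers and notes deposited with them, the assembly is mm10, the annotation is M4 and each table comes from its own alignment. The aligner and counter were not given in the sources used here. Reads that name no gene (63.2% and 61.2% of reads, including 34.0% and 33.1% that map to more than 1 place) were left out.

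Of 1973 IDs, 1894 matched GENCODE M21. The members and lists were chosen with earlier results of these data known. All members are named, with the genes ranked next to the top 2 by mean CPM, and the 3 highest other genes of the region. Log2 ratios had 0.5 added to each count. Intervals are Clopper-Pearson intervals at 95%, and a count of 0 allows 3 counts. Comparisons used scipy 1.17.1, and edgeR 4.0.16 and DESeq2 1.42.0 gave alternative scalings only, since 1 group of 2 leaves no residual spread for their tests. On simulated counts drawn from the real means, the test across 338 genes called 2.10% of 143 unchanged genes, 38.8% of those changed 1.1-fold and 69.4% of those changed 1.25-fold. The simulated counts varied by counting error only, so these rates do not carry over to libraries that vary beyond it. Between the real replicates of 1 group the test called 41.0% of 332 genes. Mir486a, Mir9-1 and Mir1a-2 were not analysed here under those symbols.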

Additional observations from a re-analysis of the deposited data

Results flagged for a closer look

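Counts on the opposite strand, which the same-strand levels leave out, exceeded the 3 counts that a count of 0 allows at 5 other genes of the region in both libraries. All 5 are annotated in M21 on the minus strand, opposite to the 10 genes described. Gm24321 had 38650 such counts in replicate 1 and 58040 in replicate 2, Gm25252 had 29603 and 41027, Mir299b had 11056 and 16674, and Gm25750 had 7563 and 9521. Gm24321, Gm25252 and Gm25750 had no same-strand count, and Mir299b had 3 and 10. Gm24321 thus reached 16419 and 18527 CPM on the opposite strand, close to the same-strand level of Mir127. Mir3071, the nearest of the 5 to Mir434, had 7 opposite-strand counts in each library against 3423 and 4468 on its own strand.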

How the results depend on the processing

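The summed level of the 10 genes was 5.27% with counts regardless of strand and 6.53% of totals without the highest gene, and 5.94% and 5.75% with 1 replicate left out. The ratio of the set opposite Rtl1 over the others was 5.73 per base, 12.3 by medians and 6.29 without the highest gene of each set, and 5.10 and 5.56 with 1 replicate left out. The opposite-strand share at Mir337 was 0.859% and 0.623% with 1 replicate left out. With 2 replicates, each value with 1 left out is only the value of the other library, so it adds no check. By the other region genes as scale 5 members differed; Mir493 (adjusted p = 0.141), Mir540 (0.183) and Mir433 (0.379) no longer passed the exact test, while the log2 ratio turned to 0.018 for Mir337 and 0.074 for Mir434. Mir434 also turned, to 0.010 by TMM and 0.0074 by DESeq2 size factors; the cause was not tested. The other 93 of 100 recomputed log2 ratios kept their direction and call. The settings were minimums of 1, 100 and none, pseudocounts of 0.1 and 10, and the strand setting and scalings named here. A minimum does not enter a gene's ratio, so the direction was fixed under those settings. A pseudocount does not enter the exact test, so the call was fixed under those. All the changes came with TMM, DESeq2 or other-region scaling. Of 40 member levels recomputed with another strand or scaling, 25 moved by no more than 1 SD and 15 by more. No paired analysis was possible because there is 1 group, and the comparison of replicates cannot leave one out. Depth limits Mir770 most, whose ratio has an interval of 0.798 to 1.02.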
